A study of Caenorhabditis elegans with 4 samples.

Results

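The *nas* genes (nematode astacins) encode secreted or membrane-bound zinc metalloproteases of the astacin family. The array read 35 of them, of 19814 genes that could be named. They were chosen by name alone, as every gene with a symbol that starts with *nas-* except *nas-36* and *nas-37*, and they were read by 104 probes. The astacin genes first numbered 26, 34 and 35 carry the names *toh-1*, *hch-1* and *dpy-31* and were therefore not among them. One member, *nas-40*, is listed as a pseudogene.

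Wild-type N2 worms were kept at 25 °C on *E. coli* OP50 and were placed on the test plates as young adults, 3 days old. The negative control (NC) received 0 µM and the treated group 200 µM remofuscin (soraprazan, a compound that removes lipofuscin from pigment cells of the eye), and both were taken after 14 days. Total RNA of whole worms was hybridised to 1-colour Agilent arrays, 1 array per group in each of 2 experiments, so that each group held 2 arrays and all 4 lay on 1 slide. The plates held about 600 worms according to the labels, and each array therefore stands for a pool of worms and not for one animal.

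Astacins share a catalytic domain with a zinc-binding motif and are made with an N-terminal prodomain that keeps the enzyme inactive until it is removed. In *C. elegans* the family is grouped by what follows the catalytic domain. Subgroup I has little beyond it, subgroup II carries short ShK-type toxin domains, subgroup III EGF-like and CUB domains, subgroups IV and V further domains of these kinds with thrombospondin repeats in V, and subgroup VI is the single gene *nas-39*, which has the domain order of BMP-1 and tolloid. Known roles in the worm lie in digestion, in hatching, in the pharyngeal grinder and in the making and shedding of the cuticle.

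The signals were given as fluorescence intensities, brought to a common 75th percentile, and a spot was called detected where the scanner software marked it as well above background. The 75th percentile of the intensities lay at 603 and 786 on the NC arrays and at 725 and 669 on the remofuscin arrays. No non-control spot was saturated, and 63.3 to 66.6% of these spots were detected per array. Precision was limited by the number of arrays. Among lists of tissue markers, the epidermal list holds only cuticle collagen genes, so it cannot tell epidermal tissue from collagen expression. Of its 5 tested genes, 3 were past the limits used below and higher with remofuscin, where 2.23% of all tested genes were. The summed signal of the epidermal list was 2156 and 1814 in the NC and 8843 and 8308 in the treated worms. The part of these genes in the values of the *nas* genes was not tested. No tested marker of the intestine (7 genes), pharynx (5), germline (6), sperm (27) or body wall muscle (4) was past the limits in either direction. In the same order, the lists had medians of 0.01, -0.19, -0.23, -0.19 and 0.16 on the log2 scale. Within experiment 1 the medians were 0.05, 0.01, -0.06, -0.43 and 0.33. Within experiment 2 they were -0.05, -0.41, -0.41, 0.09 and 0.25. In whole worms, fewer cells of a type and less RNA per cell cannot be told apart.

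Fewer *nas* genes were detected than genes in general. The brightest probe of 15 *nas* genes (42.9%) was detected on all 4 arrays, against 68.4% of all named genes. Another 4 genes (11.4%) were detected on 3 arrays, 0 on 2 arrays and 2 genes (5.71%) on 1 array, against 2.95%, 3.09% and 3.22% of all genes. The remaining 14 genes (40%) were detected on no array, against 22.3% of all genes. These shares describe the list and were not tested.

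By array, 19 *nas* genes were detected in the NC of experiment 1, 19 in the NC of experiment 2, 19 in the remofuscin-treated worms of experiment 1 and 17 in those of experiment 2. The treated array of experiment 2 also had the lowest share of all genes detected, 70.97% against 73.1 to 74.3% on the other arrays. Its lowest signal called well above background was 17.3, against 11.7 to 13.5 on the other 3 arrays. The detected genes thus differed little in number between NC and remofuscin.

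**Figure D1:**
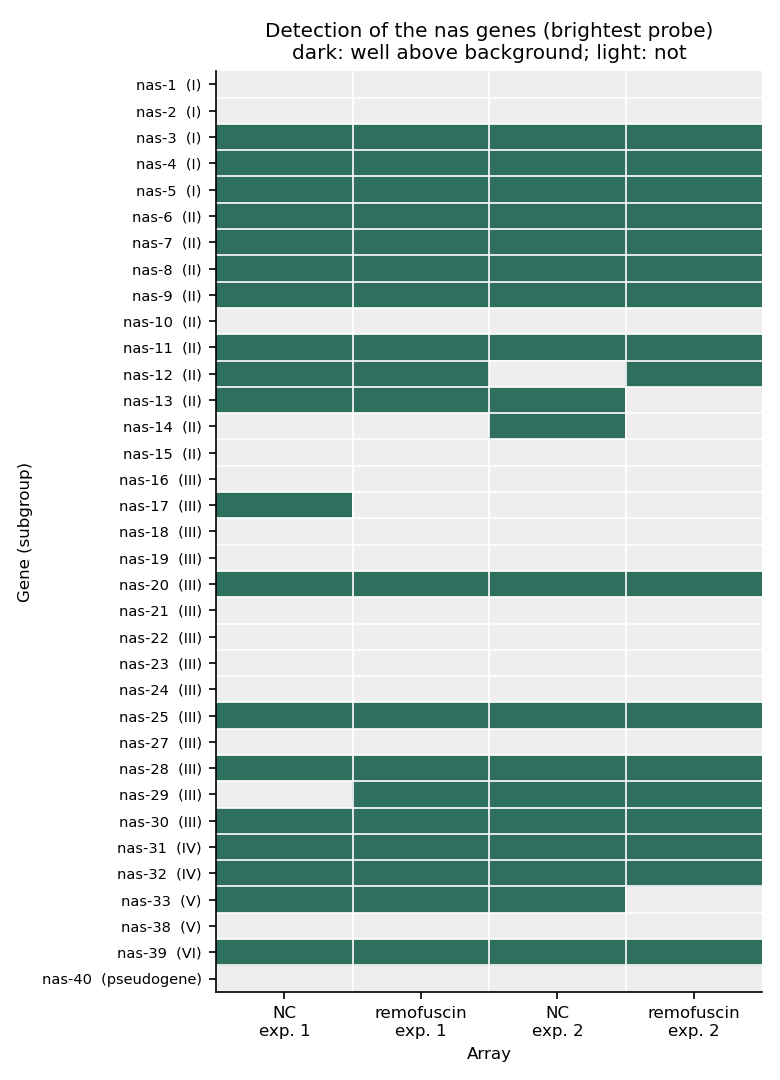
Detection of the 35 *nas* genes by their brightest probe, with genes as rows (subgroup in brackets) and the 4 arrays as columns. Dark cells are well above background and light cells are not. Of the rows, 15 are dark throughout and 14 are light throughout.

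Detection differed between subgroups. All genes of subgroups IV and VI were detected on every array (2 of 2 and 1 of 1), as were 3 of 5 genes of subgroup I and 5 of 10 of subgroup II. Subgroup III, the largest, had 4 of 14 genes detected on all 4 arrays and 8 of 14 on none. In subgroup V, *nas-33* was detected on 3 arrays and *nas-38* on none.

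In the gene order of assembly WBcel235, *nas-20*, *nas-21* and *nas-22* are consecutive protein-coding genes, and *nas-20* was detected on all 4 arrays while the other two were detected on none. A second run holds *nas-16*, *nas-18*, *nas-17* and *nas-19*, with 1 protein-coding gene between *nas-16* and *nas-18*. Of these, *nas-17* was detected on 1 array and the others on none. Cross-hybridisation between close copies was not tested.

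The study asked which genes respond to remofuscin, and called a gene at p under 0.05 with at least a 2-fold change. The same limits were applied with limma, to 19 *nas* genes detected on at least 2 of the 4 arrays. The other 16 members were too dim to be tested.

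No tested *nas* gene was past these limits. The counts were 0 of 19 higher and 0 of 19 lower, where 2.23% and 0.896% of all 14734 tested genes were past them. No *nas* gene had an unadjusted limma p under 0.05 either, against 3.56% of all tested genes. With the experiment as a replicate block, 3 of the 19 did (*nas-3*, *nas-25* and *nas-29*, all higher with remofuscin), against 12.3% of all tested genes, and 1 of them, *nas-29*, was past the limits and the adjusted threshold. Without the block, the smallest limma p was 0.0938, for *nas-29*. After Benjamini-Hochberg adjustment of that fit over the whole array every one of the 19 stood at 1.00, so that 0 were past the adjusted threshold. Of all tested genes, 0.475% were higher and 0.0747% lower past it in that fit. The plain t-test named in the methods gave 2 *nas* genes at p under 0.05 on the same values, *nas-7* and *nas-11*, neither of them 2-fold and neither past the adjusted threshold. Of the 32 *nas* probes that could be tested singly, 0 were past the limits.

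The median log2 fold change of the 19 genes was -0.06, where that of all tested genes was 0.00, and 8 genes were higher and 11 lower. Fitted values ran from -0.48 to 1.00 with standard errors from 0.37 to 0.53. The 95% interval excluded a 2-fold rise for 12 genes, a 2-fold fall for 11 genes, and both for 4 genes. For the other 15 genes a 2-fold difference in at least one direction lay within the interval, so a p that misses the threshold does not show that they were equal.

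**Figure D2:**
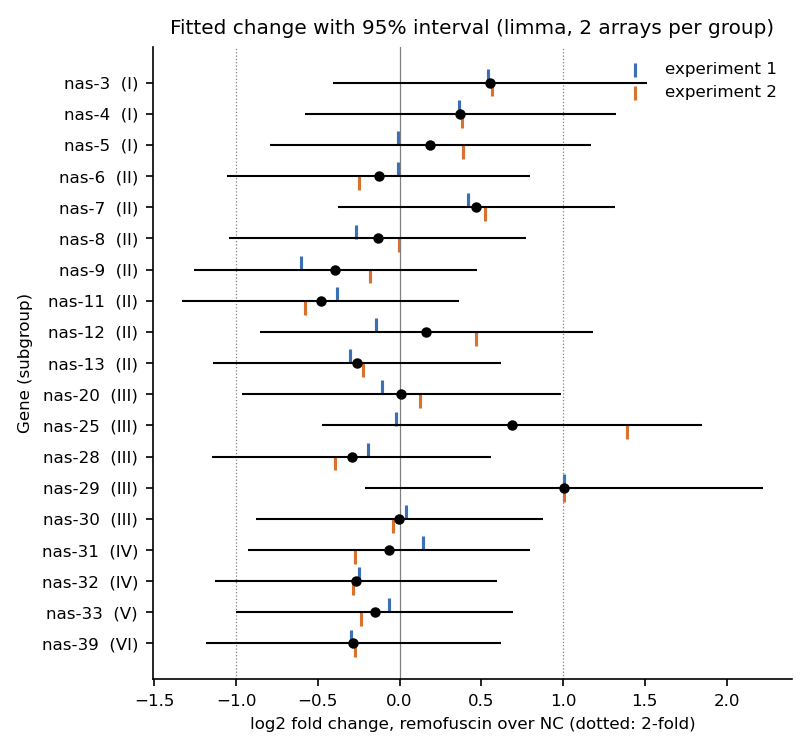
Fitted log2 fold change (remofuscin over NC) of the 19 tested *nas* genes, 2 arrays per group, with the 95% interval from limma as a line and the difference within each experiment as ticks. Dotted lines mark a 2-fold difference. All 19 intervals include 0, and *nas-29* has the highest value.

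The same 4 arrays can be read as 2 experiments with 1 array per group. Both experiments gave a higher signal with remofuscin for 4 *nas* genes and a lower signal for 9, and 6 genes went in opposite directions. The shares over all tested genes were 29%, 31.1% and 39.9%. The difference stayed within 1.5-fold in both experiments for 16 of the 19 genes. Across the 19 genes the differences of both experiments had a Pearson correlation of 0.63 and a Spearman correlation of 0.57, against 0.61 and 0.33 over all tested genes. These correlations are across genes measured on shared arrays, which are not independent replicates.

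For one *nas* gene both treated arrays lay above both NC arrays (*nas-7*), and for 5 genes both lay below (*nas-9*, *nas-11*, *nas-28*, *nas-32* and *nas-33*). Over all tested genes, 9.36% and 11% were separated in these ways.

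**Figure D3:**
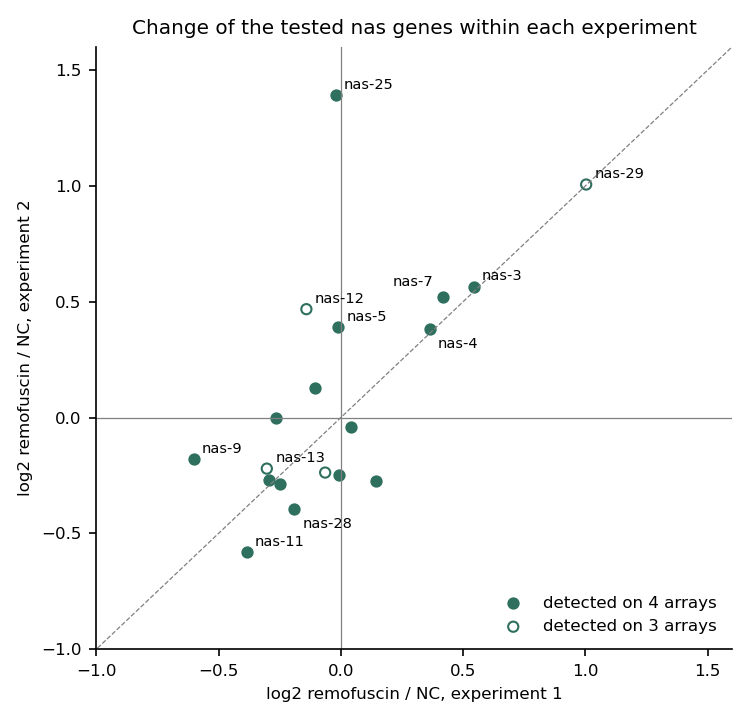
Difference between remofuscin and NC (log2) within experiment 1 (horizontal) and experiment 2 (vertical) for the 19 tested *nas* genes, with open circles for genes detected on 3 arrays. The dashed line marks equal differences. In both experiments 4 genes lie above 0, and *nas-25* lies far from the line.

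In subgroup I, all 3 tested genes were higher with remofuscin and none was past the limits. *nas-3* had scaled signals of 104 (NC) and 152 (remofuscin) in experiment 1 and of 69.9 and 103 in experiment 2. Signals were higher with remofuscin in both experiments, by 1.46-fold and 1.48-fold, but the treated array of experiment 2 lay just below the NC of experiment 1, so the groups overlapped. The group means were 87.2 ± 24.4 and 128 ± 34.4 (SD, 2 arrays per group). The fitted log2 fold change was 0.55 with a standard error of 0.42, and the 95% interval of the fold was 0.755 to 2.85. All 6 probes of *nas-3* were tested and all 6 were higher with remofuscin in both experiments, with fitted values from 0.30 to 0.60.

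*nas-4* showed the same arrangement of the arrays. Its signals were 38.9 (NC) and 50.04 (remofuscin) in experiment 1 and 26.5 and 34.6 in experiment 2. The ratios were 1.29 and 1.30, and the groups overlapped because both arrays of experiment 1 lay above both of experiment 2. The fitted log2 value was 0.37 ± 0.41 (SE). Of its 4 probes, 3 were higher in both experiments and the other was lower in both, and the fitted values of the 4 probes ran from -0.08 to 0.73.

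*nas-5* was level in experiment 1 and higher in experiment 2. Its signals were 388 and 385, and then 223 and 293, with NC first. *nas-1* and *nas-2*, the other members of the subgroup, were not detected on any array.

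In subgroup II, 2 of 7 tested genes were higher and 5 lower, and it held the one tested *nas* gene whose treated arrays both lay above the NC. *nas-6* and *nas-7* are known for the grinder, the cuticular plates with which the pharynx breaks up bacteria. *nas-7* had signals of 63.6 (NC) and 85.0 (remofuscin) in experiment 1 and of 57.7 and 82.9 in experiment 2. The replicates lay close together and the groups were apart, with means of 60.7 ± 4.18 and 84.0 ± 1.44 (SD, 2 arrays per group). The fold was 1.38 with a 95% interval of 0.769 to 2.49, and all 3 probes were higher in both experiments. The interval is wider than the replicates of this gene because limma draws the spread toward that of all probes. *nas-6* gave 97.6 and 97.1 in experiment 1 and 77.2 and 65.0 in experiment 2, with NC first. Its log2 value was -0.13 ± 0.40 (SE), and neither of these grinder genes was past the limits.

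*nas-11* was lower with remofuscin in both experiments. It read 4869 (NC) and 3728 (remofuscin) in experiment 1 and 5429 and 3629 in experiment 2. The means were 5149 ± 396 and 3679 ± 69.8 (SD, 2 arrays per group) and the groups were apart, NC being 1.40-fold above remofuscin. The log2 value was -0.48 ± 0.37 (SE), the lowest of the tested *nas* genes, and the 95% interval of the fold was 0.397 to 1.29.

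*nas-9* was also lower in both experiments. Its signals were 485 (NC) and 320 (remofuscin) in experiment 1 and 399 and 352 in experiment 2. Both treated arrays lay below both NC arrays, but the difference was 1.52-fold in the first experiment and 1.13-fold in the second. The log2 value was -0.39 ± 0.38 (SE).

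The other tested genes of the subgroup gave small or unstable values. *nas-8* read 75.5 and 62.8, and then 52.0 and 51.9, with NC first. *nas-12* read 29.8 and 27.1 in experiment 1 and 15.5 and 21.4 in experiment 2, and the 15.5 of the NC was not well above background. Its differences of -0.14 and 0.47 were among the 3 farthest apart, and its other 5 probes were detected on no array. *nas-13* was detected on 3 arrays, but not on the treated array of experiment 2, where it read 12.2. It was lower in both experiments, with a log2 value of -0.26, and only 1 of its 7 probes was detected. *nas-14* read 13.4 and 4.18 in experiment 1 and 13.5 and 4.56 in experiment 2, with NC first, and was detected on the NC of experiment 2 only. Its NC signals lay at the limit of detection, so no fold is given, and its other 2 probes were detected on no array. *nas-10* and *nas-15* were not detected. When the dim probes were tested too, *nas-10* was higher past the limits and *nas-14* and *nas-21* lower, where 2.2% and 1.5% of all genes were, but no array of the group with the lower signal, and 0 or 1 array of the other, had a spot well above background.

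In subgroup III, *nas-29* had the highest fitted value of the tested *nas* genes. It read 11.7 (NC, not well above background) and 23.4 (remofuscin) in experiment 1 and 24.9 and 50.02 in experiment 2. The ratio was 2.00 in the first and 2.01 in the second experiment. The first ratio rests on an NC reading below the lowest signal called well above background on that array, 13.5. Both groups read higher in experiment 2 by 1.09 and 1.097 on the log2 scale, and the treated array of experiment 1 lay below the NC of experiment 2. The fold was 2.01 with a 95% interval of 0.863 to 4.67. With the experiment as a replicate block, which sets aside the difference between the experiments, *nas-29* was past the limits with an adjusted p of 0.0057, where 3.73% of all tested genes were higher and 1.89% lower past the adjusted threshold. That fit has 1 residual degree of freedom and takes its spread, an SD of 0.269 on the log2 scale, from all probes together. *nas-29* was past the limits, without adjustment, with the deposited log2 values, without NC replicate 2 and without remofuscin replicate 1 as well, and its log2 value ran from 0.46 to 1.55 when an array was left out. After normexp background correction the log2 value was 0.23, and with the mean of all its probes it was 0.35, neither past the limits. The normexp setting added 50 to each signal, which draws the log2 differences of dim probes toward 0. The mean of all probes weighs the 1 detected probe equally with 5 probes detected on no array. Neither value can therefore decide whether the difference of the detected probe holds. Only 1 of the 6 probes of *nas-29* was detected, and the 5 others, dim on all arrays, gave log2 differences from -0.05 to 0.08 in experiment 1 and from 0.22 to 0.48 in experiment 2. Other *nas* genes detected on no array gave similar differences, such as *nas-2* (0.09 and 0.43) and *nas-16* (0.04 and 0.42). Not all did, as *nas-27* gave 0.20 and -0.73. The differences of the 5 dim probes are therefore not read as a change of *nas-29*.

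*nas-25* differed between the experiments. Its signals were 14.8 (NC) and 14.6 (remofuscin) in experiment 1 and 14.8 and 38.8 in experiment 2. The other arrays were level near the limit of detection and one treated array stood above them. The log2 differences were -0.02 and 1.39, the farthest apart of the tested *nas* genes, and the fitted log2 value was 0.69 ± 0.51 (SE). Without remofuscin replicate 2 it was -0.018, and without remofuscin replicate 1 it was 1.39 and past the unadjusted limits. The other 5 of its 6 probes were not detected on any array, and on the treated array of experiment 2 they read 4.56 to 10.8.

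*nas-20* was detected by all 4 of its probes. It read 1298 (NC) and 1205 (remofuscin) in experiment 1 and 791 and 864 in experiment 2. Signals of both groups were lower in experiment 2 and the fitted difference was 0.01 ± 0.42 (SE). The 4 probes gave fitted values from -0.14 to 0.05. *nas-30* was equally flat at 23.7 and 24.4 and then 29.9 and 29.1, with NC first.

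*nas-28* read 89.6 (NC) and 78.4 (remofuscin) in experiment 1 and 87.2 and 66.3 in experiment 2. Both treated arrays lay below both NC arrays, and the log2 value was -0.29 ± 0.37 (SE). *nas-17* was detected on a single array, the NC of experiment 1, where it read 14.6, and it read 2.57, 2.91 and 3.57 on the others. It had the largest gap between the experiments of any *nas* gene detected on at least 1 array, and it was not tested. The other 8 genes of the subgroup were detected on no array.

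**Figure D4:**
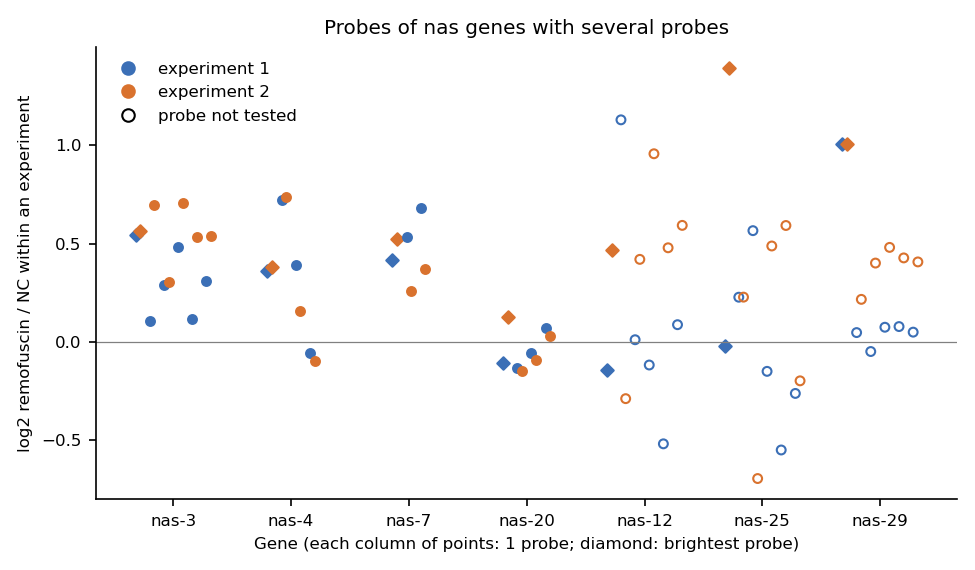
Log2 difference between remofuscin and NC within experiment 1 (blue) and experiment 2 (orange) for each probe of 7 *nas* genes, with diamonds for the brightest probe of a gene and open symbols for probes too dim to be tested. The probes of *nas-3* and *nas-7* all lie above 0, those of *nas-20* lie near 0, and *nas-12*, *nas-25* and *nas-29* have 1 tested probe each.

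In subgroups IV, V and VI, 4 of 5 genes were tested, each with a fitted value below 0, and none was past the limits. *nas-32* read 27.6 (NC) and 23.3 (remofuscin) in experiment 1 and 24.2 and 19.8 in experiment 2. The groups were apart, with a log2 value of -0.27 ± 0.38 (SE). Only 1 of its 6 probes was detected on any array, and that probe was lower in both experiments. With the mean of all its probes the log2 value was 0.051, which averages in undetected probes that read 2.46 to 4.52. *nas-31*, of the same subgroup, went in opposite directions in the experiments and overlapped, with a fitted value of -0.06.

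*nas-39*, which has the domain order of the procollagen-processing and growth factor-activating enzymes BMP-1 and tolloid, read 138 (NC) and 113 (remofuscin) in experiment 1 and 104 and 86.1 in experiment 2. It was lower in both experiments by 1.23-fold and 1.21-fold, and the groups overlapped because experiment 2 was lower throughout. The log2 value was -0.28 ± 0.39 (SE). *nas-33* read 20.4 and 19.5, and then 22.5 and 19.1, with NC first, and both treated arrays lay below the NC arrays by little. The 19.1 was not well above background. A dimmer probe of *nas-33*, detected on 1 array, went in opposite directions, with log2 differences of -0.93 and 1.01. *nas-38*, which is known for its part in the sleep-like quiescence of larval moults, was not detected on any array, with readings of 8.88 and 4.43 in experiment 1 and of 7.64 and 12.02 in experiment 2, with NC first.

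**Figure D5:**
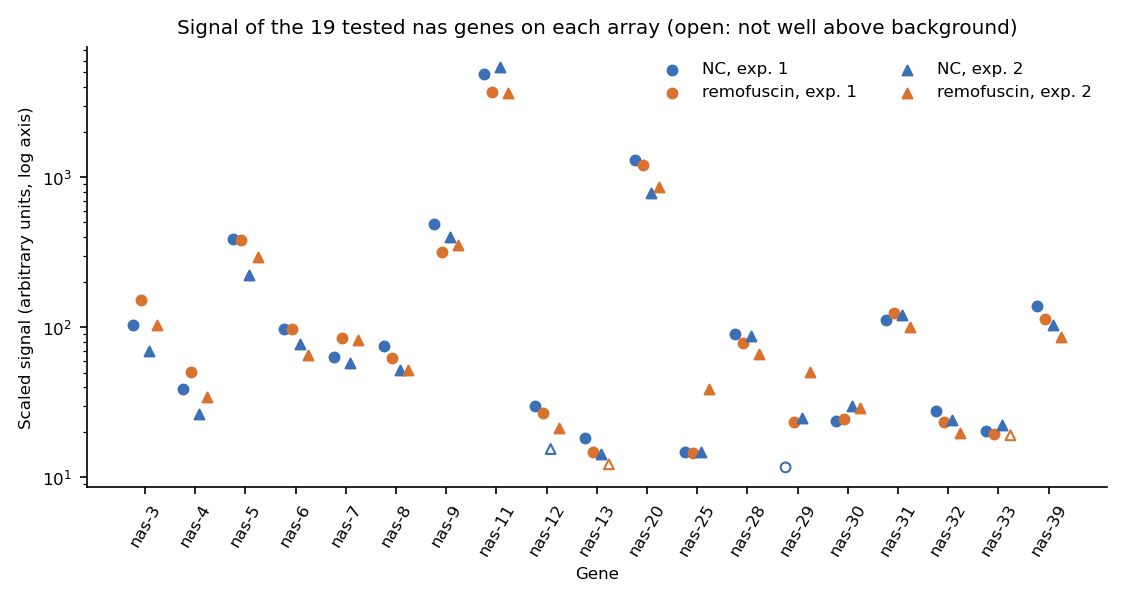
Scaled signal (log axis) of the 19 tested *nas* genes on each of the 4 arrays, with NC in blue, remofuscin in orange, circles for experiment 1 and triangles for experiment 2, and open symbols where the spot was not well above background. Heights of different genes are not comparable, since each is read by its own probe. The widest gaps between the groups within an experiment are those of *nas-25* in experiment 2 (2.63-fold) and of *nas-29* in both, and for 13 of the 19 genes the experiments differ by more than the groups.

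The difference between the experiments was larger than that between the groups for 13 of the 19 genes, and for 76.5% of all tested genes. Of the 19, 12 were lower in experiment 2 in both groups and 2 were higher in both, *nas-29* and *nas-30*. *nas-5* was 1.74-fold higher in experiment 1 than in experiment 2 among the NC and 1.31-fold higher among the treated worms. *nas-20* was 1.64-fold and 1.39-fold higher. Each experiment held 1 array of each group, so the experiments were balanced over the treatment.

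Related proteases also held no gene past the limits. Over all tested genes, 2.23% were higher and 0.896% lower past them, and lists this short can hold none at these shares. The 5 astacins left out by the rule, *nas-36*, *nas-37*, *hch-1*, *dpy-31* and *toh-1*, were all detected on 4 arrays and 0 were past the limits, with a median of -0.17. *nas-36* and *nas-37*, which act in moulting, had log2 values of -0.21 and -0.17. *dpy-31*, a procollagen C-proteinase, read 533 (NC) and 492 (remofuscin) in experiment 1 and 522 and 488 in experiment 2, a log2 value of -0.11 ± 0.37 (SE). *hch-1*, the hatching enzyme, gave 0.23 and *toh-1* -0.35.

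Among other extracellular metalloproteases (matrixins, ADAM and ADAMTS enzymes), 11 of 15 were tested and 0 were past the limits, with a median of -0.13 and a range from -0.48 to 0.24. Both tissue inhibitors of metalloproteases, *cri-2* and *timp-1*, were tested and gave -0.08 and -0.02. Of the gut aspartic and cysteine proteases (*asp* and *cpr* genes), 19 of 25 were tested and 0 were past the limits, with a median of 0.16. Of the moulting genes outside the astacins, 11 of 12 were tested, 0 were past the limits and the median was 0.02. In the same fit, 68 of 115 tested cuticle collagen (*col*) genes were higher past the limits and 1 was lower. The *nas* genes had no member past the limits beside them, and whether the lists differ was not tested.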

How the data were processed

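Total RNA of pooled wild-type worms was read on 4 1-colour arrays (NC and remofuscin, 2 each). The authors deposited scanner files whose background-corrected spot intensity (Feature Extraction 11.5.1.1 per the file headers) was used here, and a log2 value table that equals the log2 of that intensity without scaling between arrays (99.9% of probes within 0.01). Control spots and outlier-marked spots were left out. Log2 intensities were set to each array's 75th percentile and fitted with limma 3.58.1 (R 4.3.3) on 29060 probes well above background on at least 2 arrays, by group only, with Benjamini-Hochberg adjustment. Each gene was read by the probe of highest mean signal. Signals in the text are on the mean 75th percentile. Probe names were matched to gene symbols for 34320 of 43603 probes (78.7%). The labels pair the arrays by experiment; deviations of the paired arrays from their group means correlated at 0.736 over all tested probes. Nothing in the sources says how many plates made up an array, so p-values rest on the spread between these pooled samples. In the fit by group that spread includes the difference between the experiments, which widens the intervals of genes where the experiments differ. limma also draws the spread of each probe toward that of all probes, with 6.21 degrees of freedom from all probes beside 2 of its own. The SD it draws toward was 0.423 on the log2 scale in that fit and 0.269 with the block. The 15 alternatives tried were other scalings and background correction, the deposited log2 values, the methods' t-test, an intensity trend, other filters, the experiment as a block, each array left out, and the mean of all probes. The fit was tested on simulated data drawn independently for each array, which leaves out the shared deviations of the paired arrays. Named were genes past the limits, the 5 largest rises and falls alike in both experiments (4 rises met this), the 3 genes whose experiments lay farthest apart, and *nas-6*, *nas-7*, *nas-9*, *nas-38* and *nas-39*. *nas-5*, *nas-8*, *nas-13*, *nas-14*, *nas-20*, *nas-30*, *nas-31*, *nas-33*, *nas-10* and *nas-21* were added after their values were seen. The members and lists were chosen with earlier results of these data known.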

Additional observations from a re-analysis of the deposited data

How the results depend on the processing

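The counts of 0 *nas* genes past the limits rest on few arrays. With the deposited log2 values 1 gene was higher past the limits (*nas-29*), and with the experiment as a replicate block 1 was (*nas-29*), which also gave 1 gene past the adjusted threshold. The block changed no other call at the limits or the adjusted threshold, and gave an unadjusted p under 0.05 for 3 of 19 genes in place of 0. *nas-29* itself, 1.00 in the fit by group, was 0.23 after normexp and 0.35 with the mean of all its probes. The normexp setting adds 50 to each signal, and the mean averages in probes detected on no array. Without a filter on dim probes 1 gene was higher (*nas-10*) and 2 were lower (*nas-14* and *nas-21*), none well above background in both groups. Leaving out each array in turn gave 0 to 2 genes higher: *nas-29* without NC replicate 2, and *nas-25* and *nas-29* without remofuscin replicate 1, the lone array of a group then being assumed to vary like the other group. The count of lower genes and of adjusted calls stayed at 0 in these. The median of -0.06 was -0.085 with each array set to its median, -0.014 after normexp (on median spot signals, as no mean was used here), -0.048 with the deposited values, 0.010 without the filter and 0.051 with the mean of all probes, and -0.30 to 0.043 with an array left out. Of 210 values of 14 named genes, 8 changed sign. The methods' t-test, the intensity trend, the other filters and the block leave each log2 value as in the fit by group. Their values are among the 210 but could not change sign. With an array left out, *nas-6* ran from -0.42 to 0.16 (above 0 without NC replicate 1 or remofuscin replicate 2), *nas-12* from -0.31 to 0.64 (below 0 without NC replicate 2 or remofuscin replicate 1), *nas-17* from -2.18 to 0.33 (above 0 without NC replicate 1), *nas-25* from -0.018 (without remofuscin replicate 2) to 1.39 and *nas-38* from -0.89 to 0.55 (above 0 without remofuscin replicate 1). *nas-32* was 0.051 with the mean of all probes, of which only 1 was detected on any array. The causes were not tested. Signals near background limit *nas-12*, *nas-13*, *nas-25*, *nas-29*, *nas-32* and *nas-33*. They limit *nas-17*, detected on 1 array, and *nas-38*, detected on none, still more, and neither of these was tested.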
